A study of Gallus gallus with 8 samples.

Results

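Haem, the iron-bearing pigment of haemoglobin, myoglobin, catalase and the cytochromes, is built in the cell by a chain of enzymes and taken apart by the haem oxygenases. Of 9 genes of this route sought by symbol, 6 were present in the authors' deposited table and 6 passed the filter on low counts among 10136 genes tested. They were the synthesis genes ALAS1, UROS, UROD and CPOX and the breakdown genes HMOX1 and HMOX2. ALAD, PPOX and FECH were not analysed here. The set was proposed from the comparison of the birds, led by CPOX: it was chosen by its expected counts in high against low shear force birds. The differences of the members between the groups are therefore a description and carry no test.

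The samples were breast (pectoralis) muscle of 8 female Hubbard Flex broilers, a meat-type chicken, at 6 weeks of age. Their meat had high shear force in 4 birds (H1 to H4, the H birds) and low shear force in 4 (L1 to L4, the L birds), where shear force tells how tough meat is to cut. Messenger RNA was sequenced from 1 library per bird, and the labels record no treatment and no batch. Expected counts are the authors' estimates of reads per gene, and CPM is the count scaled to a common library size, with TMM factors.

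Synthesis starts in the mitochondrion, where ALAS1 joins glycine and succinyl-CoA in most tissues, the step that sets the rate outside red cells. The middle steps run in the cytosol, with UROS and UROD acting in turn to close and trim the porphyrin ring. CPOX, in the space between the mitochondrial membranes, then turns coproporphyrinogen into protoporphyrinogen, and FECH finally inserts iron. In muscle, haem is known for its place in myoglobin and in the respiratory chain.

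Total expected counts ran from 6672780 to 7322210 in the H birds and from 5564900 to 7319140 in the L birds (exact permutation p = 0.171, 2-sided). The tissue label was set beside fibre markers, of which 7 of 14 were measured. Measured means found by symbol in the authors' deposited table and passing the filter on low counts. A gene not measured is therefore not shown to be low. The summed level of the 7 fibre markers was 93122 ± 8455 CPM (SD, n = 4) in the H birds. In the L birds it was 96313 ± 14292 CPM (SD, n = 4), with an exact permutation p of 0.686 (2-sided) between the groups. The sum gives most weight to abundant genes such as ACTA1, at a mean log2 CPM of 15.6. Singly, 3 markers were higher and 4 lower in the H birds, with log2 fold changes from -0.89 to 0.18. Of the 7, 1 had an unadjusted p under 0.05 by edgeR, against 12.8% of all genes. On the first principal component of log2 CPM birds L1 and L3 stood apart, at 39.0 and 43.9, while the others lay between -24.4 and -3.27. These are bulk samples, in which fewer cells of a type and less RNA per cell cannot be told apart. Beyond the handling of tissue and libraries given at the end, the labels say no more about how the birds were kept or sampled. The p-values therefore set group differences against the spread between these birds only, and do not reach beyond them.

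Among the synthesis genes CPOX was the member whose birds separated by group. In H1 to H4 it stood at 24.3, 22.1, 24.2 and 18.3 CPM. L1 to L4 had 43.2, 72.7, 46.4 and 53.3 CPM. The highest bird of the H group thus lay well under the lowest bird of the L group, and L2 was the highest of all. The group means were 22.2 ± 2.79 CPM (SD, n = 4) and 53.9 ± 13.2 CPM (SD, n = 4), a level 2.42-fold lower in the H birds. The log2 fold change, high over low, was -1.28 ± 0.19 (SE), with a 95% interval from -1.68 to -0.87. Behind these values were 124.61 to 413.98 expected counts per bird. Among 10136 genes CPOX ranked 2 by unadjusted p in the edgeR quasi-likelihood fit. In the authors' deposited table of 8076 genes it ranked 1 by edgeR and 3 by DESeq2, with turned log2 fold changes of -1.30 and -0.999. CPOX was chosen by this contrast, so its interval and ranks describe the contrast and do not support it.

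**Figure D1:**
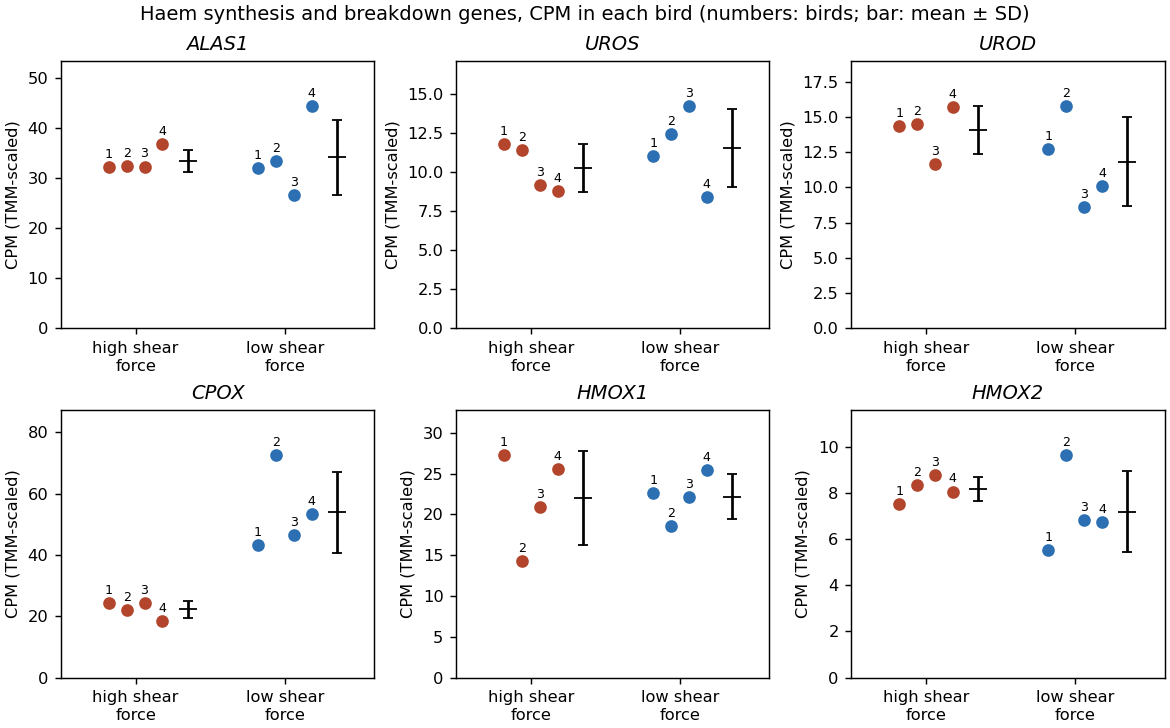
CPM of the 6 members in each bird, high shear force in red and low shear force in blue; numbers name the birds and the bar is the mean ± SD of 4 birds. In CPOX the birds of the H group sit between 18.3 and 24.3 CPM and those of the L group between 43.2 and 72.7 CPM, while in the other members the groups overlap.

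Of the 6 members, 0 passed the edgeR quasi-likelihood test at an adjusted p of 0.05, as did 0 of all 10136 genes (0%), of which 1301 (12.8%) had an unadjusted p under 0.05. DESeq2 called 1 member, CPOX, against 123 of 10134 genes (1.21%). The 4 birds of each group did not overlap in 1 member, CPOX, against 626 of 10136 genes (6.18%). In the authors' deposited table CPOX passed at an edgeR FDR of 1.47e-05 and a DESeq2 adjusted p of 1.53e-06, against 1.13% and 1.82% of its genes. Nothing is read from these counts, because this contrast proposed the set.

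ALAS1, which starts the chain, had nearly the same level in both groups. It stood at 32.25, 32.5, 32.4 and 36.8 CPM in H1 to H4. Its values were 32.1, 33.5, 26.7 and 44.5 CPM in L1 to L4. The L birds spanned the whole range, with L3 and L4 as its ends. ALAS1 had a log2 fold change of -0.03 ± 0.17 (SE), with a 95% interval from -0.39 to 0.33. It was 0.11 without L4 and -0.25 without L1 and L3.

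UROS closes the porphyrin ring. It was measured at 11.8, 11.4, 9.16 and 8.79 CPM in H1 to H4. L1 to L4 gave 11.1, 12.5, 14.3 and 8.40 CPM. The groups overlapped, and L4 was the lowest of the 8. The log2 fold change of UROS was -0.17 ± 0.22 (SE), with a 95% interval from -0.64 to 0.30.

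UROD removes carboxyl groups from the ring and so makes the substrate of CPOX. H1 to H4 had 14.4, 14.5, 11.7 and 15.7 CPM. In L1 to L4 it stood at 12.7, 15.8, 8.62 and 10.1 CPM. The groups overlapped, since L2 was the highest of all. UROD had a log2 fold change of 0.25 ± 0.22 (SE), with a 95% interval from -0.22 to 0.73. Its value was 0.11 without L3, 0.40 without L2 and 0.084 without L1 and L3.

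Set against the other measured synthesis genes within each bird, CPOX kept the same split. The log2 ratio of CPOX to UROD in CPM ran from 0.22 to 1.03 in the H birds and from 1.74 to 2.39 in the L birds, a difference in means of -1.52. Against ALAS1 the log2 ratio ran from -0.99 to -0.41 and from 0.26 to 1.11, a difference of -1.24. Against UROS the difference of the mean log2 ratios was -1.10. The groups did not overlap in any of these 3 ratios, which carry the CPOX difference in them and so add no separate evidence. Gene lengths were not used, so the ratios are compared between birds and not read as the abundance of an enzyme over another.

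The haem oxygenases split haem into biliverdin, carbon monoxide and iron. HMOX1 is the form that cells induce under stress and that macrophages use to recycle haem. It stood at 27.3, 14.3, 20.95 and 25.5 CPM in H1 to H4. L1 to L4 had 22.6, 18.6, 22.1 and 25.4 CPM. Both the lowest and the highest of the 8 birds were in the H group. On the log2 scale the fold change of HMOX1 was -0.01 ± 0.21 (SE), with a 95% interval from -0.46 to 0.44, and ran from -0.13 without H1 to 0.15 without H2.

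Macrophage markers were summed in the same birds. Of 15 markers 8 were measured. Their summed level ran from 957 to 1907 CPM in the H birds. In the L birds it ran from 971 to 1511 CPM (exact permutation p = 0.286, 2-sided, between the groups). In H1 to H4 the sums were 957, 1505, 1907 and 1600 CPM. L1 to L4 had 1075, 971, 1038 and 1511 CPM. H1, which had the most HMOX1, had the lowest sum of all, whereas in the L birds the order of the sums was that of HMOX1. The part of macrophages in the HMOX1 levels was not tested.

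HMOX2, the constitutive form, was the least counted member, with 36 to 70 reads per bird. Its values were 7.50, 8.34, 8.78 and 8.06 CPM in H1 to H4. L1 to L4 gave 5.53, 9.65, 6.82 and 6.72 CPM. The H birds lay close together inside the wider range of the other group. The log2 fold change of HMOX2 was 0.19 ± 0.22 (SE), with a 95% interval from -0.29 to 0.68, and was -0.035 without L1 and L3.

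Across all 6 members the log2 fold changes were positive in 2 and negative in 4, with a median of -0.02 beside 0.01 over all genes tested. The 5 members other than CPOX lay between -0.17 and 0.25. Intervals of this width leave room for differences of up to about 0.73 on the log2 scale, so the 5 members are not shown to be equal in both groups. The spread of CPOX between birds was ordinary for its level: its biological coefficient of variation of 0.197 was above 65.6% of the 500 genes nearest in abundance, whose median was 0.179. HMOX2 varied less than most, above 13.8% of its 500 nearest genes.

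**Figure D2:**
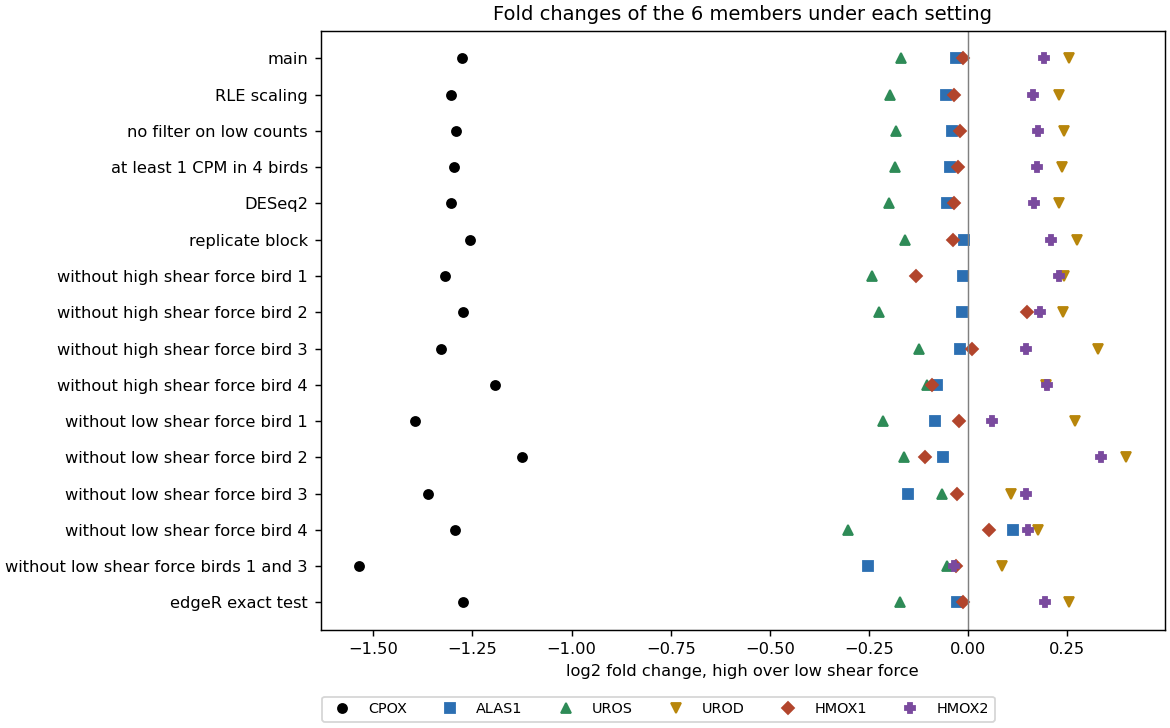
Log2 fold change, high over low shear force, of the 6 members in the main fit and 15 alternative settings. CPOX stays between -1.54 and -1.13 under all of them. The other members stay between -0.30 and 0.40, and ALAS1, HMOX1 and HMOX2 change sign in some settings.

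With a bird left out the log2 fold change of CPOX ran from -1.39 without L1 to -1.13 without L2, and was -1.54 without L1 and L3. The adjusted p of the edgeR quasi-likelihood fit was 0.0827 with all birds and ranged from 0.0434 to 0.206 with a bird left out. These ranges describe the contrast that chose CPOX and do not support it.

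Red cell markers were summed in each bird. Of 18 erythrocyte markers 6 were measured. Their summed level ran from 326 to 922 CPM in the H birds. In the L birds it ran from 273 to 367 CPM (exact permutation p = 0.0571, 2-sided, between the groups). The sums were 743, 922, 468 and 326 CPM in H1 to H4. L1 to L4 had 323, 282, 273 and 367 CPM. H1 to H3 lay above every L bird, while H4 lay between L1 and L4. Of the 6 markers 4 were higher and 2 lower in the H birds, and 0 passed by edgeR. Single red cell markers were added after values were seen. The globin genes HBB, HBAA and HBAD were called by DESeq2 and did not overlap between the groups. Over all genes, DESeq2 called 1.21%, and 6.18% did not overlap. HBB, HBAA and HBAD had log2 fold changes of 1.88 ± 0.42 (SE), 1.94 ± 0.45 (SE) and 2.17 ± 0.53 (SE). Their edgeR adjusted p-values were 0.152, 0.163 and 0.186. CA2, a carbonic anhydrase, stood at 0.67 ± 0.36 (SE), and the membrane genes SPTB and GYPC at -0.032 ± 0.26 (SE) and -0.35 ± 0.35 (SE), each with overlap. ALAS2, the red cell form of the first enzyme, and GATA1 and SLC4A1, other defining markers, were not analysed here. Fibroblast markers, 8 of 10 measured, summed to between 3155 and 4224 CPM in the H birds. In the L birds they summed to between 2253 and 2978 CPM (exact permutation p = 0.0286, the smallest that 70 assignments can give). All 8 were higher in the H birds, with a median log2 fold change of 0.55. Of the 8, 6 had an unadjusted p under 0.05 by edgeR, against 12.8% of all genes. The groups did not overlap in 5, DESeq2 called 1, and 0 passed by edgeR. Endothelial markers (9 of 12 measured) ran from 282 to 530 CPM against 231 to 404 CPM, high against low (exact permutation p = 0.171). Each of the 9 was higher in the H birds, with a median log2 fold change of 0.62 and overlap between the groups. Of the 9, 4 had an unadjusted p under 0.05 by edgeR, against 12.8% of all genes, and 0 passed. Adipocyte markers (6 of 10 measured) ran from 307 to 389 CPM against 201 to 361 CPM, high against low (exact permutation p = 0.114). Among these, 5 were higher and 1 lower in the H birds, with a median of 0.35. The permutation p-values of the marker sums were not adjusted for the number of sums compared. The part of red cells, fibroblasts, endothelium and adipocytes in the CPOX difference was not tested.

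Further genes of haem synthesis and its mitochondrial transport were taken from a list. Of 13 genes 8 were measured, and 0 passed in either direction by edgeR or by DESeq2, which called 0% and 1.21% of all genes. At an unadjusted p under 0.05 by edgeR there were 1 higher and 1 lower, against 12.8% of all genes. The median log2 fold change was -0.09 over 1 higher and 7 lower. The groups overlapped in all 8, where 6.18% of all genes had no overlap. ABCB10, a transporter of the inner mitochondrial membrane on the haem route, had mean levels of 19.4 ± 2.72 CPM in the H birds and 26.6 ± 5.68 CPM in the L birds (SD, n = 4), or -0.45 ± 0.19 (SE) as log2 fold change. CLPX, a mitochondrial unfoldase known in yeast and mammals to act on the first enzyme, had -0.36 ± 0.17 (SE), and SUCLA2, a subunit of succinyl-CoA synthetase, had -0.25 ± 0.18 (SE). TSPO, a porphyrin-binding protein of the outer membrane, stood on the other side at 0.57 ± 0.24 (SE), and it too did not pass (edgeR adjusted p = 0.363).

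**Figure D3:**
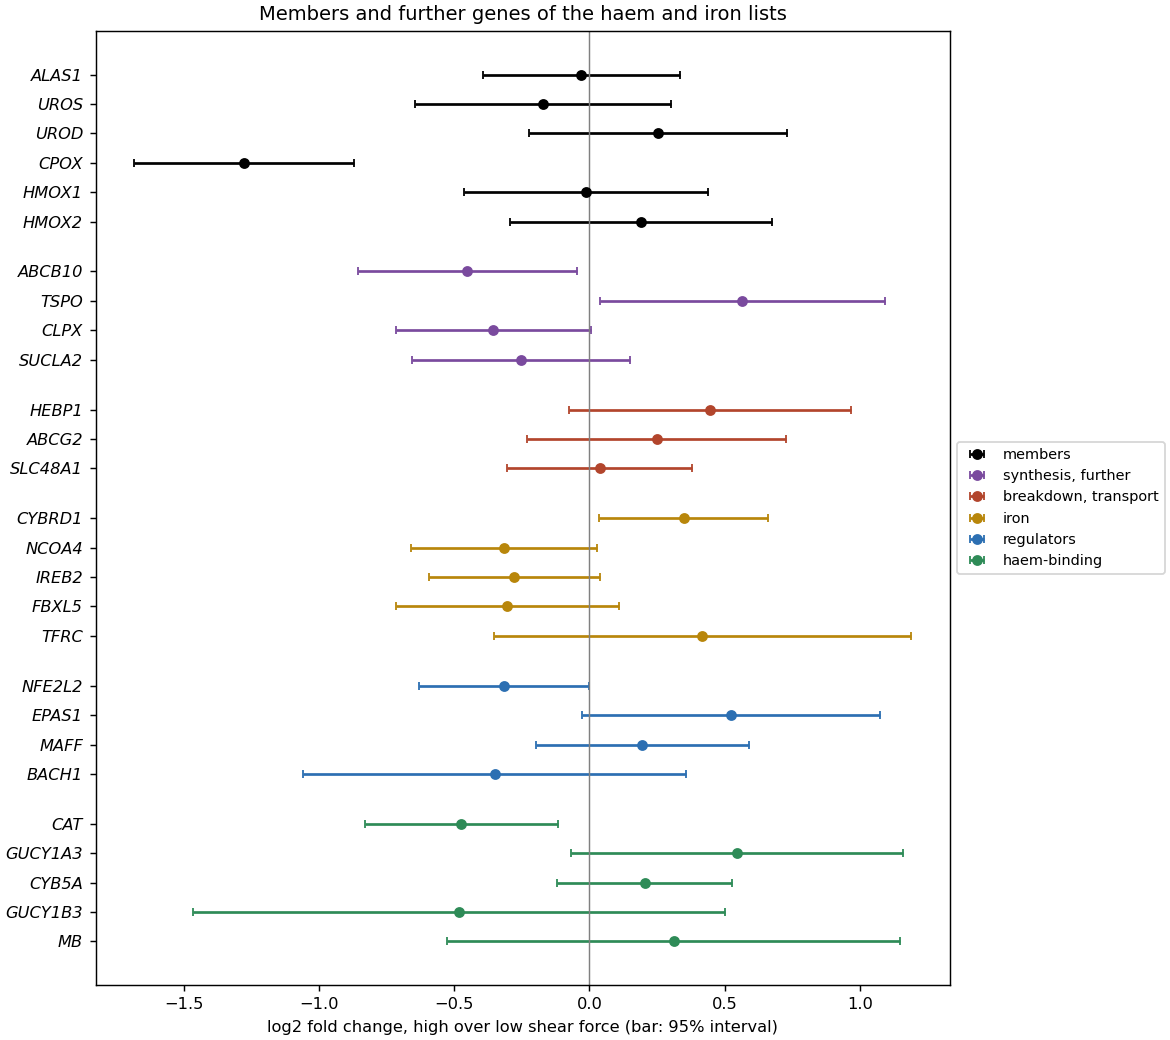
Log2 fold change, high over low shear force, with 95% intervals, for the 6 members (black) and the named genes of the 5 haem and iron lists (colours). The point estimate of CPOX, at -1.28, lies apart from those of the others shown, which are between -0.48 and 0.57. The intervals of GUCY1B3 (from -1.46) and BACH1 (from -1.06) overlap that of CPOX (to -0.87). Genes of the lists that are not shown reach -0.70.

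Haem handling after synthesis was covered thinly. Of 10 genes of breakdown and transport 3 were measured, 0 passed, and each was higher in the H birds, with a median log2 fold change of 0.25. HEBP1, a haem-binding protein of the cytosol, stood at 0.45 ± 0.24 (SE) and ABCG2, a porphyrin exporter, at 0.25 ± 0.22 (SE). SLC48A1, which moves haem out of endosomes, stood at 0.04 ± 0.16 (SE).

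Genes of iron supply showed no common direction. Of 20 genes 12 were measured, 6 higher and 6 lower, with a median of 0.03 and 0 that passed by edgeR or DESeq2. Their log2 fold changes ran from -0.70 to 0.42. CYBRD1, an iron reductase, had mean levels of 31.3 ± 3.22 CPM in the H birds and 24.6 ± 2.04 CPM in the L birds (SD, n = 4), or 0.35 ± 0.14 (SE) as log2 fold change. NCOA4, which delivers ferritin for breakdown, had -0.32 ± 0.16 (SE). IREB2, an iron-sensing RNA-binding protein, stood at -0.28 ± 0.14 (SE), and FBXL5, which targets it for destruction, at -0.30 ± 0.19 (SE) and at -0.014 without L1 and L3. TFRC, the transferrin receptor, was high in H2, at 31.1 CPM, where the other 7 birds had 8.60 to 15.5 CPM. Its log2 fold change was 0.42 ± 0.35 (SE) with all birds and -0.077 without that bird.

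Regulators known to act on haem genes did not pass either, with 9 of 18 measured, 6 higher and 3 lower, and a median of 0.08. NFE2L2, the factor that turns on HMOX1 under oxidative stress, had mean levels of 66.5 ± 8.01 CPM in the H birds and 82.8 ± 8.79 CPM in the L birds (SD, n = 4), or -0.32 ± 0.14 (SE) as log2 fold change, with an edgeR adjusted p of 0.384. BACH1, a repressor of HMOX1 that haem itself binds, had -0.35 ± 0.32 (SE), with -0.064 without L1 and 0.18 without L1 and L3. EPAS1, a hypoxia factor, stood at 0.52 ± 0.25 (SE) and at 0.26 without H2, and MAFF, a small partner protein of NFE2L2 and BACH1, at 0.20 ± 0.18 (SE).

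Of 18 genes of haem-binding proteins and of haem attachment, 12 were measured, with 9 higher, 3 lower, a median of 0.11 and 0 that passed. CAT, catalase, was the gene of this list without overlap between the groups, against 6.18% of all genes. H1 to H4 had 100.4, 118, 107 and 121 CPM of CAT. L1 to L4 gave 131, 182, 180.0 and 126.5 CPM. Its log2 fold change was -0.47 ± 0.16 (SE) with an edgeR adjusted p of 0.311. MB, myoglobin, the haem protein that stores oxygen in muscle, ranged from 6.02 to 23.0 CPM in the H birds and from 9.77 to 14.4 CPM in the L birds. Its log2 fold change was 0.31 ± 0.38 (SE), which became -0.0074 without H4. CYB5A, cytochrome b5, stood at 0.20 ± 0.15 (SE). GUCY1A3 and GUCY1B3, subunits of the nitric oxide receptor whose haem sits in the second, stood at 0.55 ± 0.28 (SE) and -0.48 ± 0.45 (SE), and the latter at -0.99 without H3, -0.20 without L3 and 0.31 without L1 and L3.

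Over the 5 lists together 44 of 79 genes were measured and 0 passed by edgeR, while 2 higher and 3 lower had an unadjusted p under 0.05, against 12.8% of all genes in either direction. DESeq2 likewise called 0 of the 44, against 1.21% of all genes. Birds of both groups did not overlap in 1 of the 44, CAT, against 6.18% of all genes.

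CPOX lies on chromosome 1 from 83561890 to 83573845 as the authors' deposited table gives it. HMOX1 is on the same chromosome, from 51949101 to 51955226, and the other members are on chromosomes 12 (ALAS1), 6 (UROS), 8 (UROD) and 14 (HMOX2). The 4 nearest tested genes with an entry in that table on each side of CPOX showed 5 higher and 3 lower. Their median log2 fold change was 0.13, and 0 passed by edgeR, as did 0 of all 10136 genes. Of the 8, 2 had an unadjusted p under 0.05 by edgeR, against 12.8% of all genes. These were COL8A1 and DPT, both higher in the H birds. In DPT the groups did not overlap, against 6.18% of all genes. The closest of them, TTF2, whose start lies 21.5 kb before that of CPOX, stood at -0.24 ± 0.24 (SE), and ST3GAL6, 52.9 kb after it, at -0.02 ± 0.16 (SE). The matrix genes COL8A1, 99.9 kb after, and DPT, 249 kb before, stood on the other side from CPOX, at 0.90 ± 0.27 (SE) and 0.56 ± 0.17 (SE), with edgeR adjusted p-values of 0.258 and 0.269. The remaining neighbours were GPR161 and TIPRL, at 0.16 ± 0.22 (SE) and 0.09 ± 0.15 (SE), DCBLD2, at -0.39 ± 0.28 (SE), and C3ORF26, at 0.30 ± 0.32 (SE).

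**Figure D4:**
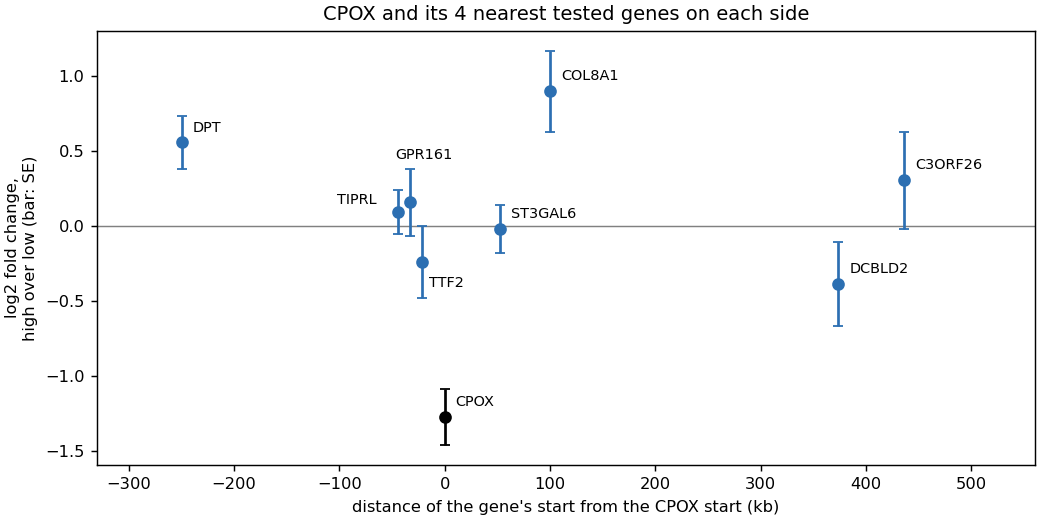
Log2 fold change, high over low shear force, with SE, of CPOX and the 4 nearest tested genes on each side, against the distance of each start from the CPOX start in kb. CPOX, at -1.28, lies below all 8 neighbours, which run from -0.39 to 0.90.

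Each member had 1 transcript in the deposited transcript tables, with counts equal to those of the gene, so transcripts add no further measurement. The counts of CPOX were not whole numbers in 8 of 8 birds, while those of the other 5 members were whole in every bird. Of 7020 genes with a mean of at least 50 counts, 86.7% were whole in all birds, where whole means exactly whole as deposited. Estimated counts lose their whole values when reads are divided between features, so some of the reads of CPOX may be shared. No single gene whose decimals completed those of CPOX in all 8 birds, within 0.02 counts, was found.

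Genes with a profile over the 8 birds most like that of CPOX were ranked by the root mean square difference of log2 CPM, each gene centred on its mean. The median difference over 7618 genes with a symbol was 0.72, and the 8 nearest lay between 0.24 and 0.36. The nearest was UCH-L1, a ubiquitin hydrolase, at 0.24, followed by PPP1R36, a phosphatase subunit, at 0.25 and TNFRSF9, a receptor of activated T cells, at 0.30. CHPT1, an enzyme of phosphatidylcholine synthesis, had 0.33, as did DCLK2, a kinase, and KCNK1, a potassium channel. PAK1, another kinase, stood at 0.35 and the chaperone HSP70 at 0.36. UCH-L1 had 26.8, 26.3, 26.2 and 23.6 CPM in H1 to H4. It had 39.2, 57.2, 37.0 and 50.1 CPM in L1 to L4. As in CPOX, L2 was the highest and H4 the lowest. This likeness follows the group difference by which CPOX was picked and carries no test.

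**Figure D5:**
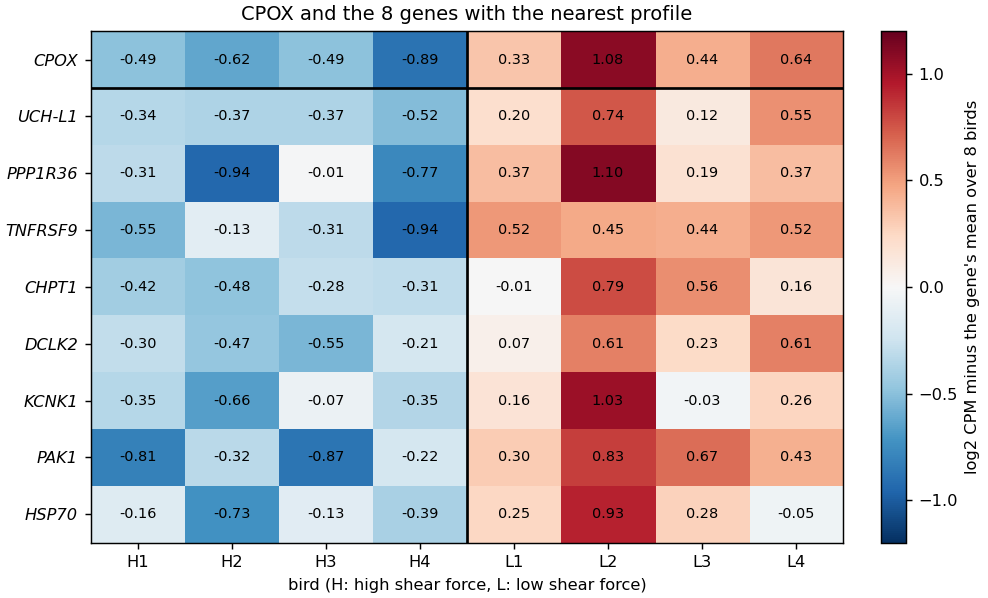
Log2 CPM of CPOX and its 8 nearest genes in each bird, each gene centred on its mean over 8 birds; red is above and blue below that mean. In all 9 genes L2 lies above the mean, by 1.08 for CPOX, and each H bird lies below it.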

How the data were processed

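Libraries came from RNAlater-preserved muscle by Trizol extraction and an Illumina TruSeq kit, per the labels' protocols, and were sequenced in 2 technical repetitions. The authors deposited expected counts for 17108 genes. Per the submitters' processing notes the tools included RSEM, edgeR, DESeq2, Bowtie2, TopHat, Cuffdiff and FastQC, without roles, and the build was galGal4. Not given in the sources used here are the way repetitions were combined, filters and strand. The authors' deposited tables also hold log2 fold changes with p-values and adjusted p-values, per the file headers. Their sign was opposite to that of the counts in all 1107 genes with an unadjusted p under 0.05, and was turned.

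Expected counts were rounded, filtered with filterByExpr (10136 genes, 99.83% of counts kept), TMM-scaled and tested with the edgeR 4.0.16 quasi-likelihood test (robust) in R 4.3.3, on the group alone, with Benjamini-Hochberg adjustment at 0.05. SE is the log2 fold change over the root of F, and 95% intervals use it with a t quantile. Log2 CPM had a prior count of 2. Marker sums were compared by exact permutation over 70 assignments. DESeq2 1.42.0 was an alternative.

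Members and lists were chosen with earlier results of these data known. Named were all members, up to 4 genes with the smallest p per list, genes given by name (MB, TFRC and BACH1 of these were measured) and the 8 genes most like CPOX. Some list genes are not reported here and were left out of their counts. The neighbours of CPOX and the single red cell markers were added after values were seen. Replicate numbers were not taken as pairs, because the labels give no pairing. Deviations of same-numbered birds correlated at 0.014, -0.0032, 0.21 and 0.32. Differently numbered birds were not correlated as a reference, so these values cannot settle whether birds were paired. No birds of a group agreed within sampling noise: 31.2% to 54.4% of genes differed beyond it. Sequences and gene lengths were not used here. On simulated counts for this comparison, 10136 genes entered. The test recovered 47 of 100 genes with a log2 change of 1 and 93 of 100 with a log2 change of 2. There were 9 false among 149 calls. Genes were simulated independently, with no pattern shared between birds, unlike the data, where L1 and L3 stood apart. The recovery is therefore not the power of the test on these data.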

Additional observations from a re-analysis of the deposited data

Results flagged for a closer look

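In 70 groups of 4 birds (35 genes named here, CPM), 3 held a bird far from the others, where chance gives about 1 in 20 groups. ALAS1 stood at 36.78 CPM in H4, above 32.25 to 32.53 CPM in the others of its group. GUCY1A3 stood at 8.781 CPM in H1, below 21.69 to 24.33 CPM in the others. PPP1R36 stood at 15.79 CPM in L2, above 8.229 to 9.409 CPM. It was named for its likeness to CPOX, in which L2 is the highest too, so the rate of 1 in 20 does not hold for it.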

How the results depend on the processing

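CPOX was lower in the high shear force (H) than in the low shear force (L) birds under all 15 alternatives, with log2 fold changes from -1.54 to -1.13. Its adjusted p, 0.0827 in the edgeR quasi-likelihood test, passed 0.05 with no filter on low counts (-1.29, adjusted p = 0.0222), with DESeq2 (-1.30, adjusted p = 3.55e-06), with the edgeR exact test (-1.27, adjusted p = 1.32e-05) and without L2 (-1.13, adjusted p = 0.0434). It did not pass under the other 11, among them RLE scaling (0.0874). With 1 bird left out the value ran from -1.39 to -1.13. With the replicate block it was -1.26 (adjusted p = 0.0625). CPOX was chosen by this contrast, so these values describe the contrast and do not support it.

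The number of genes called over all genes was 0, and 7 with no filter, 123 with DESeq2, 126 with the exact test, 1 with the replicate block and 0 to 7 with 1 bird left out. It was 3 without H1, 7 without L2 and 1 without L4. The cause was not tested. The exact test and the fits without L1 and L3 were chosen after seeing the data. Without these 2 birds ALAS1 moved to -0.25, and HMOX2 (-0.035), ABCG2 (-0.025), BACH1 (0.18) and GUCY1B3 (0.31) changed sign. With 1 bird left out, sign changes were seen for ALAS1 (-0.15 to 0.11), HMOX1 (-0.13 to 0.15), SLC48A1 (-0.030 to 0.075), MB (-0.0074 to 0.57) and TFRC (-0.077 to 0.61). The other members and named list genes kept their sign in these fits, and none of the list genes passed. Of the 8 genes most like CPOX 7 stayed with a prior count of 0.5 and 8 with RLE scaling. At 36 to 111 counts per bird, the 95% intervals reach -0.64 for UROS, 0.73 for UROD and 0.68 for HMOX2 on the log2 scale.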
